A study of Mus musculus with 115 samples.

Results

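De novo fatty acid synthesis was followed through 10 genes, Fasn, Scd1, Scd2, Acaca, Acly, Me1, Elovl5, Elovl6, Srebf1 and Thrsp, in liver and inguinal adipose tissue of mice. They were found by symbol among the 25697 probes of an Illumina 1-colour BeadChip, where 12 probes carried them. Acaca was listed under its older symbol Acac and Me1 as Mod1, and Me1 and Srebf1 each had a pair of probes. Of these 12 probes, 9 (8 genes) were bright enough to be tested in liver and 11 (all 10 genes) in adipose, and the same 9 were tested in both.

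The animals were FCG mice on a C57BL/6J background, in which Sry, the gene that makes the embryonic gonad a testis, is deleted from the Y chromosome and can be inherited as an autosomal transgene. The genotypes without Sry, XX and XY-, grow ovaries, and those with the transgene, XXSry and XY-Sry, grow testes. All mice, controls included, lost their gonads at 75 days of age and were given a capsule at once, and tissue was taken 3 weeks later. The capsule was blank or held testosterone (5 mM) or estradiol (50 µg of 17beta-estradiol in sesame oil), and the blank capsule held adhesive with no oil. No group had intact gonads, so the gonad contrast compares mice that had testes with mice that had ovaries before surgery. Liver had 5 arrays in each of 12 groups. Adipose had 55 arrays in 12 groups of 3 to 5, the smallest being XX with a blank capsule, which makes 17 blank, 19 testosterone and 19 estradiol arrays. The labels do not tie arrays to single mice, or a liver array to an adipose array of the same mouse, so p-values measure the spread between these arrays.

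De novo lipogenesis turns surplus carbohydrate into fat. Citrate exported from mitochondria is split to acetyl-CoA, which is carboxylated to malonyl-CoA and condensed into palmitate with reducing power from NADPH, and palmitate is then elongated and desaturated. In rodents the pathway runs in liver and in fat and is driven mainly by insulin through SREBP-1c and by glucose through ChREBP.

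The promoters of the genes on which the tissue comparison below turns are shown to let their proximal sequences be compared. RefSeq promoter windows (GRCm38.p6) were matched for 8 of the 10 genes, and for 5 of them a window ended at the annotated gene start. The 250 bases upstream of that start are printed 5' to 3' along the gene's strand for Elovl6, Acly, Me1 and Elovl5. In the main fit below, Elovl6, Acly and Me1 were called for a difference between the tissues with both hormones. Elovl5 fell with testosterone in each tissue. Capitals mark matches on either strand to CACGTG (an E-box), TCACNCCAC (a sterol regulatory element), CCAAT (an NF-Y box), GGGCGG (an Sp1 box) or TGACCT (a nuclear receptor motif), and neighbouring matches can touch.
Elovl6 (chr3:129532136-129532385, + strand): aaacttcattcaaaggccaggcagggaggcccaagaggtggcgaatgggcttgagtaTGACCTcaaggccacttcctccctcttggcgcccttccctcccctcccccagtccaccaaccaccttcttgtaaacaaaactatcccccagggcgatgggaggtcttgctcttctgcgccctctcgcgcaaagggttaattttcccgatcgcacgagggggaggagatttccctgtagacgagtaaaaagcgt
Acly (chr11:100528001-100528250, - strand): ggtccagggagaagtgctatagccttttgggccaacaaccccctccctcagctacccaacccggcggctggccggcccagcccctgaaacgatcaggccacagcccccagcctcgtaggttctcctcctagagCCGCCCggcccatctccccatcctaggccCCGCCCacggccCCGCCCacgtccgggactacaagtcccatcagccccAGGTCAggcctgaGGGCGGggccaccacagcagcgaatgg
Me1 (chr9:86695915-86696164, - strand): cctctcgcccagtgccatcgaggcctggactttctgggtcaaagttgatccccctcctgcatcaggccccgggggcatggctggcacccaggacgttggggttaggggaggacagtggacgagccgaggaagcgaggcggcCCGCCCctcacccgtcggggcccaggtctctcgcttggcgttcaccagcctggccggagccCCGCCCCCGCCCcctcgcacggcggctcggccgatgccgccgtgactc
Elovl5 (chr9:77917115-77917364, + strand): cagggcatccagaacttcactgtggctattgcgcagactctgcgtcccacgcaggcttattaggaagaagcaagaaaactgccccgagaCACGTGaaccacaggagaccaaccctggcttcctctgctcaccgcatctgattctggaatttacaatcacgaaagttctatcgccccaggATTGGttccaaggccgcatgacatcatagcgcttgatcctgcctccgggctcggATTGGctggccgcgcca
Acly held 4 Sp1 boxes and Me1 held 3, while Elovl6 and Elovl5 held 0. Elovl5 held 1 E-box and 2 NF-Y boxes, and Acly and Elovl6 held 1 nuclear receptor motif each. None of these windows held the sterol element in the letters searched. Among all 32851 promoter windows of this length, 32.7% held an Sp1 box, 33.8% an NF-Y box, 14% a nuclear receptor motif, 6.02% an E-box and 1.05% the sterol element. These matches describe the letters in the window and no binding was measured.

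Arrays of each tissue were compared on a log2 scale after background correction and quantile normalisation, and a probe was called when its adjusted p was under 0.05 in limma with Benjamini-Hochberg adjustment over all tested probes. Liver arrays had median raw signals of 124 to 159, adipose arrays of 129.9 to 230.4, and no arrays held identical values. All 7 hepatocyte markers passed the detection filter in liver, and of 6 white adipocyte markers Adipoq, Cidec, Fabp4 and Plin1 were detected in none of them. All 6 were detected in adipose, where the mean level of 8 skeletal muscle markers ran from 6.20 to 14.36 between arrays and that of 5 tested hepatocyte markers from 4.88 to 13.05. The label fields of 1 adipose array, XX E replicate 1, disagree on its treatment, and it was kept as estradiol, with Greb1, an estrogen-induced gene, at 9.22, within the 7.17 to 9.30 of the other estradiol arrays. No blank or testosterone array passed 6.40. In liver, 1 array labelled XY-Sry T (replicate 5) had Xist at 6.63, inside the range of XX arrays. The Y-linked gene Eif2s3y, at 4.53 in that array, was also inside the XX range (4.32 to 4.96). Other XY arrays had it at 6.76 to 8.14. Another liver array, labelled XY- E (replicate 5), had the testosterone-induced gene Hsd3b5 at 12.26, inside the range of testosterone arrays. Both arrays were kept as labelled. The highest of the other estradiol arrays, at 11.19, also just passed the lowest testosterone array, at 11.15. Replicate numbers follow accession order, are not in the labels and only name arrays. Values without XX E replicate 1 in adipose, or without XY-Sry T replicate 5 or XY- E replicate 5 in liver, are given where they change a call. In bulk tissue, fewer cells of a type and less RNA per cell cannot be told apart.

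At baseline, under a blank capsule, most of these genes gave a stronger signal in adipose than in liver when both tissues were normalised together. Acaca, the acetyl-CoA carboxylase that commits carbon to the pathway, read 13.50 ± 0.33 (SD, n = 17) in adipose and 10.57 ± 0.42 (SD, n = 20) in liver on this joint scale. Elovl5, which elongates polyunsaturated fatty acids, went the other way, at 12.53 ± 0.23 (SD, n = 17) in adipose and 13.82 ± 0.16 (SD, n = 20) in liver. Scd1, the desaturase that makes oleate and palmitoleate, was among the brightest probes, ranking 35 of 25697 in adipose and 166 in liver. The Fasn probe, for the synthase that assembles palmitate, was detected in 50 of 55 adipose arrays and in 2 of 60 liver arrays. The Scd2 probe was detected in 54 adipose arrays and 0 liver arrays. Neither could therefore be tested in liver, and their blank signals were at least 2.15-fold (Fasn) and at least 1.74-fold (Scd2) higher in adipose, each bound taken against the dimmest signal that counted as detected. A second Srebf1 probe, ILMN_2696876, was detected on no array of either tissue and was not tested. Srebf1 below refers to probe ILMN_2792089.

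In adipose tissue testosterone lowered 7 of the 11 tested probes of the 10 genes and called none higher, covering Acly, Acaca, Fasn, both Me1 probes, Elovl5 and Elovl6. Across all 14636 tested adipose probes testosterone called 4.75%, and 2.59% were called lower. No member's testosterone arrays separated fully from its blank arrays, as those of 0.0478% of all probes did. The median difference was -0.65 for the 11 probes and -0.02 for all probes, on the log2 scale.

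Acly, which cleaves citrate to supply acetyl-CoA, ran from 13.36 to 14.94 (median 14.36) in the 17 blank arrays and from 12.51 to 14.62 (median 13.35) in the 19 testosterone arrays. The ranges overlapped, but 18 of 19 testosterone arrays lay under the blank median and 10 under the lowest blank array. The fall was 0.92 ± 0.17 (SE; adjusted p = 4.56e-04), or 1.89-fold. Acaca went from 13.14 to 14.19 (median 13.68) in blank to 12.40 to 13.75 (median 13.05), with 13 of 19 arrays below every blank array. It fell by 0.65 ± 0.15 (SE; adjusted p = 0.0046), which is 1.57-fold.

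Fasn spanned 6.89 to 9.61 (median 8.18) in blank arrays and 5.40 to 8.41 (median 6.85) with testosterone. Its arms overlapped, with 10 of 19 testosterone arrays below the lowest blank array, and it fell by 1.20 ± 0.29 (SE; adjusted p = 0.00891). This probe is dim in adipose, and because 16 was added to each corrected intensity before the log its fold change is understated.

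Me1 is cytosolic malic enzyme, which makes NADPH for the synthase. Probe ILMN_2937261 ran from 9.18 to 11.55 (median 10.18) in blank arrays and from 8.09 to 10.24 (median 9.34) with testosterone, and probe ILMN_2774690 from 10.45 to 12.11 (median 11.25) and from 9.28 to 11.22 (median 10.42). With the latter, 12 of 19 testosterone arrays were under the lowest blank array. The probes fell by 1.10 ± 0.25 (SE; adjusted p = 0.00438) and 1.03 ± 0.22 (SE; adjusted p = 0.00259), both in the same direction.

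The 2 elongases responded unequally. Elovl6, which extends palmitate to stearate, ran from 11.39 to 14.01 (median 12.68) in blank arrays and from 9.20 to 12.57 (median 10.37) with testosterone. All 19 testosterone arrays lay under the blank median and 14 under the lowest blank array. It fell by 2.04 ± 0.30 (SE; adjusted p = 6.59e-06), and its fold change of 4.11 was the largest of the 11 probes. Elovl5 ran from 12.28 to 12.93 (median 12.78) in blank arrays and from 12.19 to 13.17 (median 12.43) with testosterone, a fall of 0.28 ± 0.08 (SE; adjusted p = 0.0305). That call was lost when any of 9 single arrays was left out.

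The 4 other probes were not called with testosterone in adipose. Thrsp (Spot 14), a lipogenic regulator of acetyl-CoA carboxylase, differed by -0.58 ± 0.19 (SE; adjusted p = 0.0611), and Srebf1, which encodes the transcription factor SREBP-1, by -0.38 ± 0.19 (SE; adjusted p = 0.275). Scd1 differed by -0.20 (95% interval -0.35 to -0.05) and Scd2 by -0.19 (95% interval -0.73 to 0.35). Thrsp was called in 3 of 11 alternatives and on leaving out certain single arrays, and Scd1 in 2 of 11 alternatives.

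**Figure D1:**
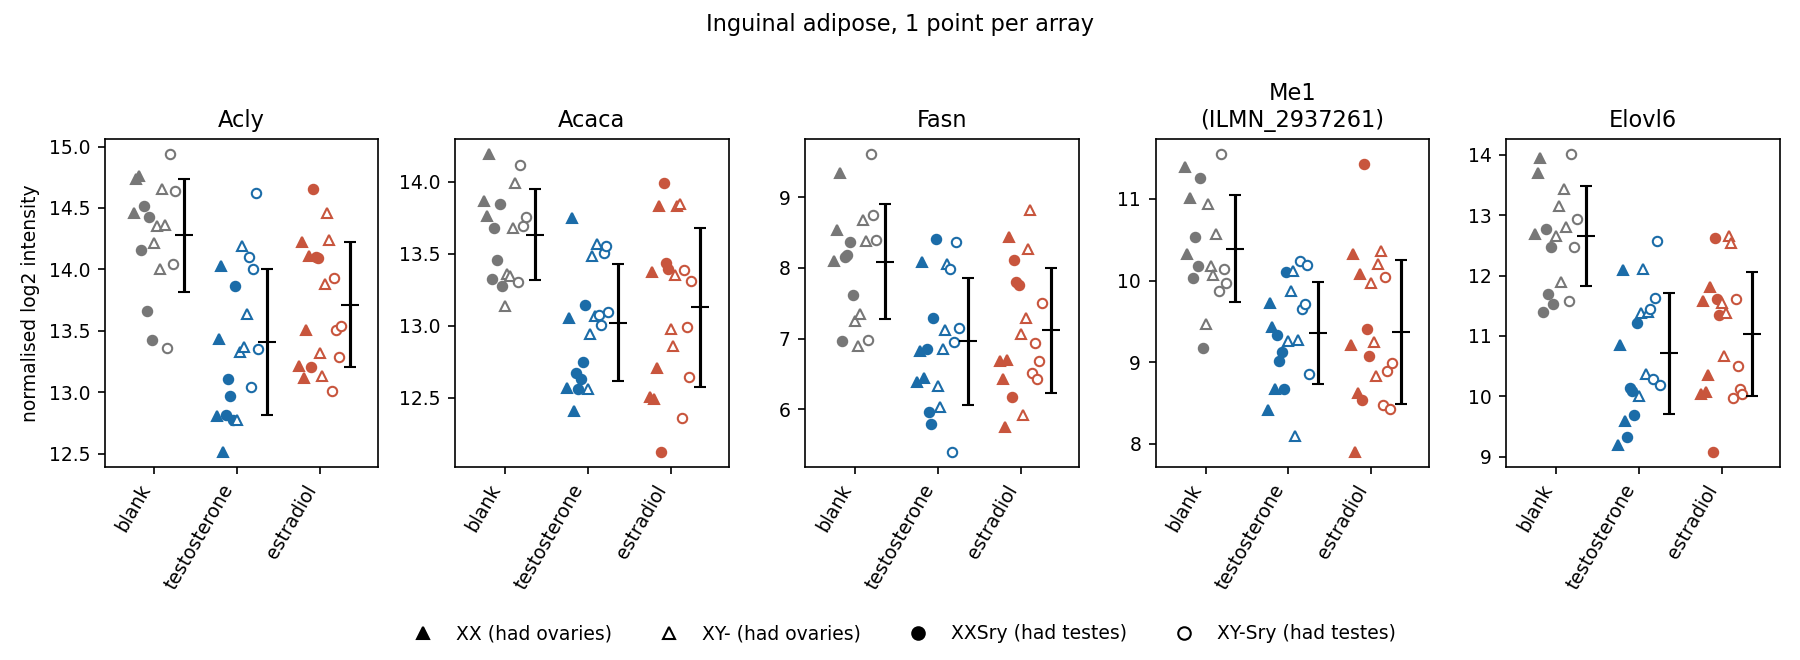
Normalised log2 intensity (y axis) of Acly, Acaca, Fasn, Me1 and Elovl6 in inguinal adipose, 1 point per array, for blank, testosterone and estradiol capsules; symbols mark genotype, and the black bars show mean and SD of 17, 19 and 19 arrays. Both hormone arms sit below the blank arm for each gene while overlapping it, and Elovl6 moves farthest, from a blank median of 12.68 to 10.37 with testosterone and 11.35 with estradiol.

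Estradiol also called 7 of the 11 probes in adipose, all lower: Acly, Acaca, Fasn, both Me1 probes, Elovl6 and Scd1. Estradiol changed this tissue more widely, with 20.5% of all tested probes called and 10.1% called lower. Full separation from the blank arm, seen in 0.253% of all probes, occurred in 0 members. Both hormones were compared with the same blank arrays.

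Elovl6 ran from 9.08 to 12.65 (median 11.35) with estradiol, all 19 arrays being under the blank median and 11 under the lowest blank array. It fell by 1.70 ± 0.30 (SE; adjusted p = 2.11e-05), or 3.26-fold. Fasn spanned 5.75 to 8.82 (median 6.94) and fell by 1.03 ± 0.29 (SE; adjusted p = 0.00849), with 9 of 19 arrays below every blank array. The Me1 probes ran from 7.90 to 11.42 (median 9.20, ILMN_2937261) and from 8.76 to 11.97 (median 10.25, ILMN_2774690). They fell by 1.06 ± 0.25 (SE; adjusted p = 0.0012) and 0.95 ± 0.22 (SE; adjusted p = 0.00119), and 15 and 17 of 19 arrays were under the blank median.

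The falls of the early enzymes were smaller. Acly ran from 13.01 to 14.65 (median 13.54) and fell by 0.59 ± 0.17 (SE; adjusted p = 0.00991). Acaca ran from 12.12 to 13.99 (median 13.31) and fell by 0.54 ± 0.15 (SE; adjusted p = 0.00594). Both arms overlapped the blank arms, with 7 of 19 arrays (Acly) and 9 of 19 (Acaca) below the lowest blank array. Scd1 fell by 0.33 ± 0.07 (SE; adjusted p = 8.57e-04), from 14.21 to 14.81 (median 14.47) in blank arrays to 13.88 to 14.72 (median 14.26). The remaining probes, Elovl5 (-0.08), Thrsp (-0.25), Scd2 (-0.40) and Srebf1 (-0.41), had adjusted p values between 0.138 and 0.534. Of these, Srebf1 was called in 3 of 11 alternatives, as with array weights (-0.58, adjusted p = 0.00982 in limma).

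Set directly against each other, testosterone and estradiol were not distinguished in adipose for any of the 11 probes, while 17.3% of all tested probes differed between these arms. Differences of testosterone minus estradiol lay between -0.33 and 0.21. For Elovl6 it was -0.33 (95% interval -0.91 to 0.24) and for Acly -0.33 (95% interval -0.66 to 0.0018). A p above the threshold does not show that the hormones act alike.

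RNA levels of cell type markers also differed in the same arrays. Of the brown adipocyte markers 4 of 5 were called lower with estradiol, among them Cidea (-2.87) and Ucp1 (-2.37, the uncoupling protein) on the log2 scale, and the mean level of the list ran from 9.11 to 12.53 in blank, 8.06 to 12.47 in testosterone and 7.70 to 9.77 in estradiol arrays. With testosterone 1 of 5 was called (Cidea, -1.12). White adipocyte markers were called lower with estradiol on 3 of 7 probes and with testosterone on 0 of 7, and their mean level ran from 10.09 to 11.80 in blank and 10.06 to 11.59 in estradiol arrays. Skeletal muscle markers had a median level of 13.11 in blank and 10.14 in estradiol arrays, with 0 of 10 probes called. All 9 macrophage marker probes rose with estradiol and 0 of 9 were called with testosterone. With the brown marker score in the model, 2 of the 7 estradiol calls were left, Elovl6 (-1.29, adjusted p = 0.0127) and Scd1 (-0.35, adjusted p = 0.00798). Me1 then differed by -0.66 and -0.61 and Acly by -0.46, with adjusted p of 0.13, 0.119 and 0.139. The white marker score left 6 estradiol calls, losing Fasn (-0.80, adjusted p = 0.0614 in limma), and gave 9 testosterone calls. Of all probes 22.1% and 6.15% were called in those fits. With scores of muscle, lymphoid and hepatocyte markers in the model 8 probes were called with each hormone, against 7.72% (testosterone) and 24.4% (estradiol) of all probes. The brown marker covariate left all 7 testosterone calls in place, Elovl6 at -1.90 (adjusted p = 2.5e-05). With it, however, the share of all adipose probes called rose from 4.75% to 12.6% for testosterone. For estradiol that share fell from 20.5% to 17.8%, so the 2 hormones' counts come from unlike calling rates.

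Slide moved with treatment too, as no slide carried all 3 treatments. With slide in the model the testosterone calls in adipose fell to 3, Elovl6 (-1.73, adjusted p = 0.00223), Fasn (-1.19, adjusted p = 0.0142) and Acly (-0.78, adjusted p = 0.0255). The share of all adipose probes called with testosterone fell too, from 4.75% to 1.75%. On the 2 slides that held both arms, all 7 called probes were lower with testosterone, Elovl6 by -1.42 and -2.33 and Fasn by -1.08 and -1.30. With estradiol 6 of 7 calls remained under the slide term, and Acly (-0.39, adjusted p = 0.186) did not. Of all adipose probes 14.3% were then called with estradiol, against 20.5% without the term.

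For the called probes, direction was shared by all genotypes. Each of the 7 probes called with testosterone and each of the 7 called with estradiol was lower in 4 of 4 genotypes. The calls average over these same genotypes, so a shared direction is partly built in. Some of the falls were well within their SE, as for Acly with estradiol in XXSry (-0.03 ± 0.34, SE). For every called probe the largest fall was in XX mice. The XX blank group, with 3 arrays, also had the highest group mean for 9 of the 11 probes. Elovl6 changed with testosterone by -3.01 in XX, -1.74 in XY-, -1.88 in XXSry and -1.52 in XY-Sry. With estradiol the spread was wider, at -2.67 in XX and -2.30 in XY-Sry against -1.04 in XY- and -0.81 in XXSry. Fasn with estradiol gave -1.85 and -1.62 in the first pair and -0.24 and -0.40 in the second. Whether XX and XY-Sry together differ from the other two was not tested. Without the XX groups, 4 testosterone calls were left in adipose (Acly, Acaca, Elovl6 and Me1 on ILMN_2774690) and 3 estradiol calls (Elovl6 and both Me1 probes), with Elovl6 at -1.71 (adjusted p = 8.78e-04) and -1.38 (adjusted p = 0.00244). With these fewer arrays the shares of all probes called fell as well, from 4.75% to 3.12% (testosterone) and from 20.5% to 13.1% (estradiol).

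**Figure D2:**
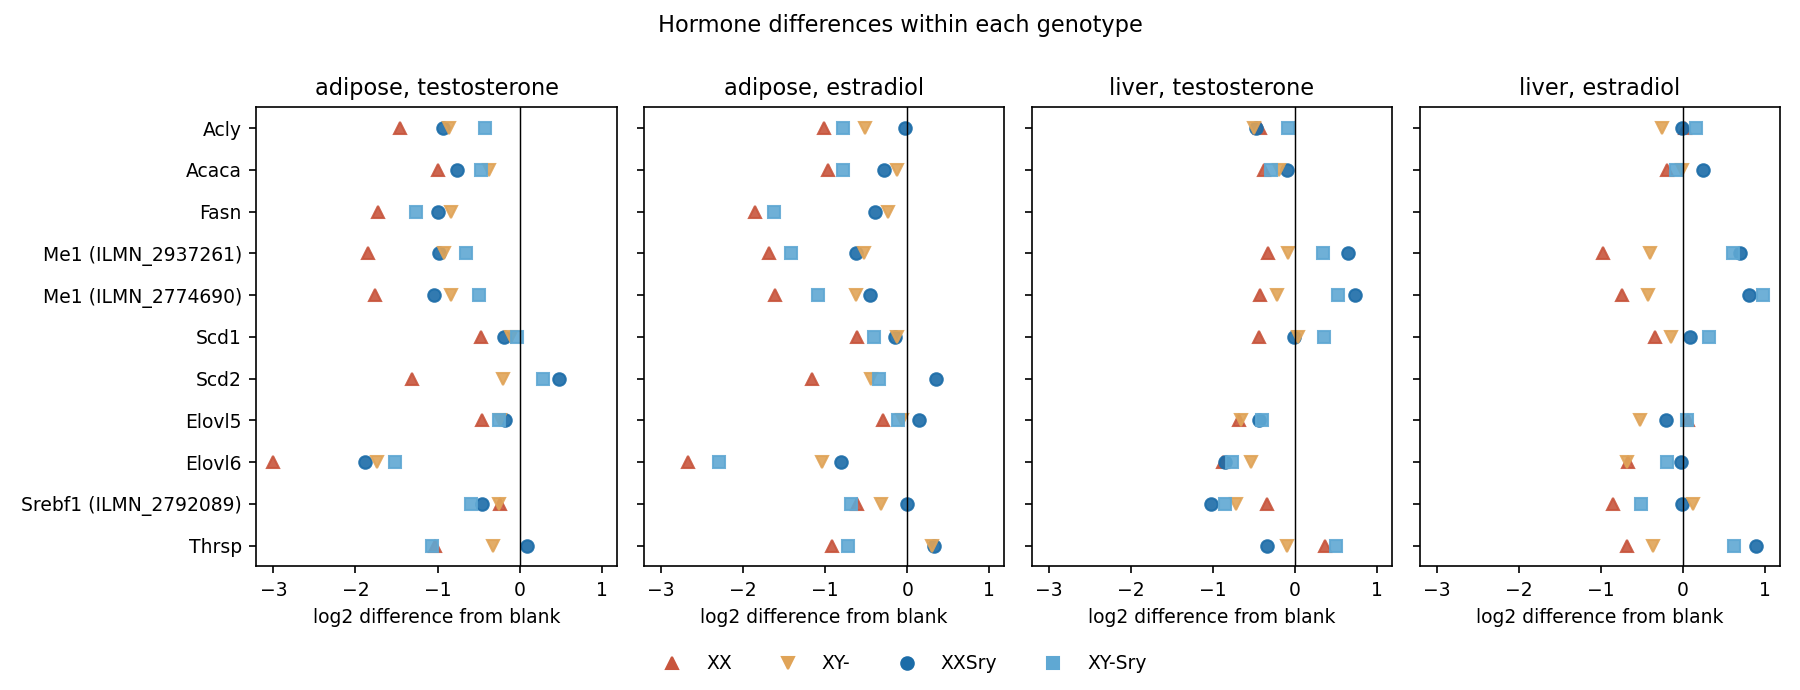
Log2 difference from blank (x axis) of each tested probe (y axis) within the 4 genotypes, for both hormones in adipose (left panels) and liver (right panels); each point is the difference of 2 group means. In adipose XX mice lie farthest left for all called probes, as at -3.01 for Elovl6 with testosterone, while in liver the Me1 points with estradiol split by Sry, at -0.97 in XX and 0.70 in XXSry on ILMN_2937261 and at -0.73 in XX and 0.98 in XY-Sry on ILMN_2774690.

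In liver testosterone lowered 4 of the 9 tested probes, Srebf1, Acly, Elovl5 and Elovl6, and called none higher. Acly, Elovl5 and Elovl6 were also called lower in adipose. Testosterone changed 19.1% of all tested liver probes and 10.9% were lower. Arms separated fully in 0 members and in 0.451% of all probes. The median difference was -0.24 for the 9 probes and 0.00 for all probes.

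Srebf1 ran from 9.08 to 10.46 (median 9.67) in 20 blank arrays and from 7.87 to 9.51 (median 9.04) in 20 testosterone arrays, of which 12 lay below every blank array. It fell by 0.74 ± 0.17 (SE; adjusted p = 8.23e-04). Elovl5 showed the cleanest separation, from 13.44 to 13.98 (median 13.70) in blank to 12.71 to 13.66 (median 13.12), with 17 of 20 testosterone arrays below every blank array. Its fall was 0.55 ± 0.07 (SE; adjusted p = 4.55e-08), or 1.46-fold.

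Elovl6 in liver ran from 10.01 to 11.46 (median 10.74) in blank and from 9.26 to 10.77 (median 9.99) with testosterone, and 10 of 20 arrays lay below the lowest blank array. It fell by 0.76 ± 0.15 (SE; adjusted p = 1.27e-04). Acly ran from 12.16 to 13.05 (median 12.69) and from 11.87 to 12.80 (median 12.28), a fall of 0.37 ± 0.10 (SE; adjusted p = 0.00393). All 4 were lower in each of the 4 genotypes and on each of the 3 slides with both arms, and all 4 calls held under slide as a block and whichever single array was left out. The calls average over these same genotypes, and the fall of Acly in XY-Sry was within its SE (-0.09 ± 0.19, SE).

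The other liver probes were not called. Acaca differed by -0.24 (95% interval -0.52 to 0.04), and it was called only with slide in the model (-0.40, adjusted p = 0.0178). Scd1 differed by -0.01 (95% interval -0.24 to 0.22), Thrsp by 0.11 (95% interval -0.43 to 0.64), and the Me1 probes by 0.14 and 0.15. For Scd1, levels in all 3 liver arms centred on similar values, with medians of 13.13 (blank), 13.20 (testosterone) and 13.23 (estradiol).

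Estradiol called 0 of the 9 probes in liver, where 6.82% of all tested probes were called. Elovl6 was nearest, at -0.39 ± 0.15 (SE; adjusted p = 0.109). Its estradiol arrays spread widely, from 9.06 to 11.81 (median 10.38), reaching past both ends of the blank arm. At an unadjusted p under 0.05, Elovl6 and Elovl5 (-0.15, 95% interval -0.30 to -0.01) pass. The call on Elovl6 depends on scaling: with median centring it differed by -0.59 (adjusted p = 0.031), but that scaling moved the median of all liver probes to -0.18 from -0.02. Testosterone and estradiol differed directly for Acly (-0.36, adjusted p = 0.00557) and Elovl5 (-0.39, adjusted p = 3.17e-05), both lower with testosterone, in a comparison that called 18.4% of all probes. In the same liver arrays, macrophage marker probes were called higher with estradiol on 8 of 9 and lower with testosterone on 3 of 9. Hepatocyte marker probes were called on 0 of 8 with estradiol and higher on 2 of 8 with testosterone. What these marker differences mean for the members was not tested.

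**Figure D3:**
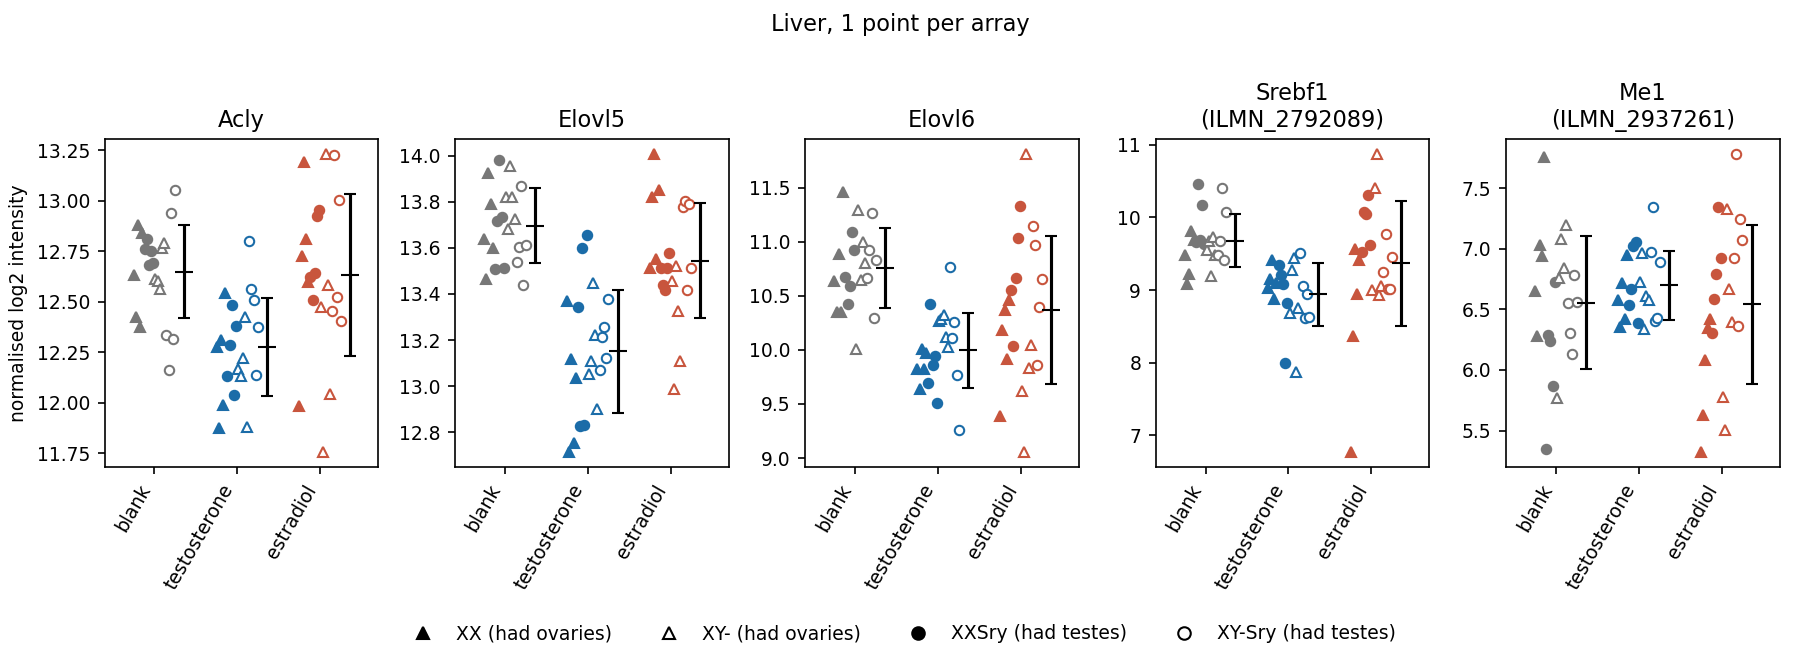
Normalised log2 intensity (y axis) of Acly, Elovl5, Elovl6, Srebf1 and Me1 in liver, 1 point per array, for the 3 capsules, with mean and SD of 20 arrays in black and genotype by symbol. Elovl5 shows the least overlap between testosterone and blank, with medians of 13.12 and 13.70, and Me1 on ILMN_2937261 has pooled medians of 6.64 and 6.60, which hide unlike testosterone differences by genotype (XXSry 0.64, XY-Sry 0.34, XX -0.33, XY- -0.09).

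The difference between tissues was tested in 1 fit of the arrays of both tissues, as the hormone difference in adipose minus that in liver. For testosterone 4 of the 9 probes were called, each with a larger fall in adipose: Elovl6, Acly and both Me1 probes. Of the 10761 probes tested in both tissues 6.82% were called and 3.14% in this direction. For estradiol 5 of 9 were called, Acaca in addition, against 10.2% of all probes and 5.13% in this direction.

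Me1 fell in adipose and was not called in liver. Its tissue differences were -1.34 ± 0.29 and -1.29 ± 0.29 (SE; adjusted p = 9.26e-04 and 0.00153) for testosterone and -1.10 ± 0.29 and -1.19 ± 0.29 (SE; adjusted p = 0.00638 and 0.00264) for estradiol. Elovl6 fell with testosterone in both tissues, and its tissue difference was -1.64 ± 0.34 (SE; adjusted p = 4.04e-04). With estradiol it was -1.58 ± 0.34 (SE; adjusted p = 4.76e-04).

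Acly differed by -0.63 ± 0.19 (SE; adjusted p = 0.0301) with testosterone and by -0.60 ± 0.19 (SE; adjusted p = 0.0317) with estradiol. Acaca differed by -0.58 ± 0.20 (SE; adjusted p = 0.0452) with estradiol. This last call was lost on leaving out any of 40 single arrays, among them the adipose array of disputed treatment (adjusted p = 0.0646). Elovl5 and Srebf1 had tissue differences of 0.21 (95% interval -0.01 to 0.42) and 0.22 (95% interval -0.27 to 0.72) with testosterone, so an unequal response was not shown for them although Srebf1 was called only in liver. Scd1 was called with estradiol only in adipose, yet its tissue difference was -0.33 ± 0.13 (SE; adjusted p = 0.115).

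Scaling and slide bear on these tissue differences. With median centring, which moved the median of all estradiol tissue differences to 0.18, Elovl6 alone was called for estradiol (-1.14, adjusted p = 0.035), and for testosterone Acly was lost (-0.41, adjusted p = 0.491). With slide in the model 0 probes were called for estradiol, Elovl6 differing by -1.07 (adjusted p = 0.0956), and 2 for testosterone, Elovl6 (-1.37, adjusted p = 0.0169) and Me1 on ILMN_2937261 (-1.07, adjusted p = 0.0405). Of all probes 6.38% (estradiol) and 5.36% (testosterone) were then called, against 10.2% and 6.82% in the main fit. With median centring these shares were 7.96% and 3.08%. The Acly call was lost in 5 of 8 alternatives for testosterone and in 3 of 8 for estradiol. For testosterone these included array weights (-0.54, adjusted p = 0.0581) and the difference of separate tissue fits (-0.54, adjusted p = 0.0773).

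**Figure D4:**
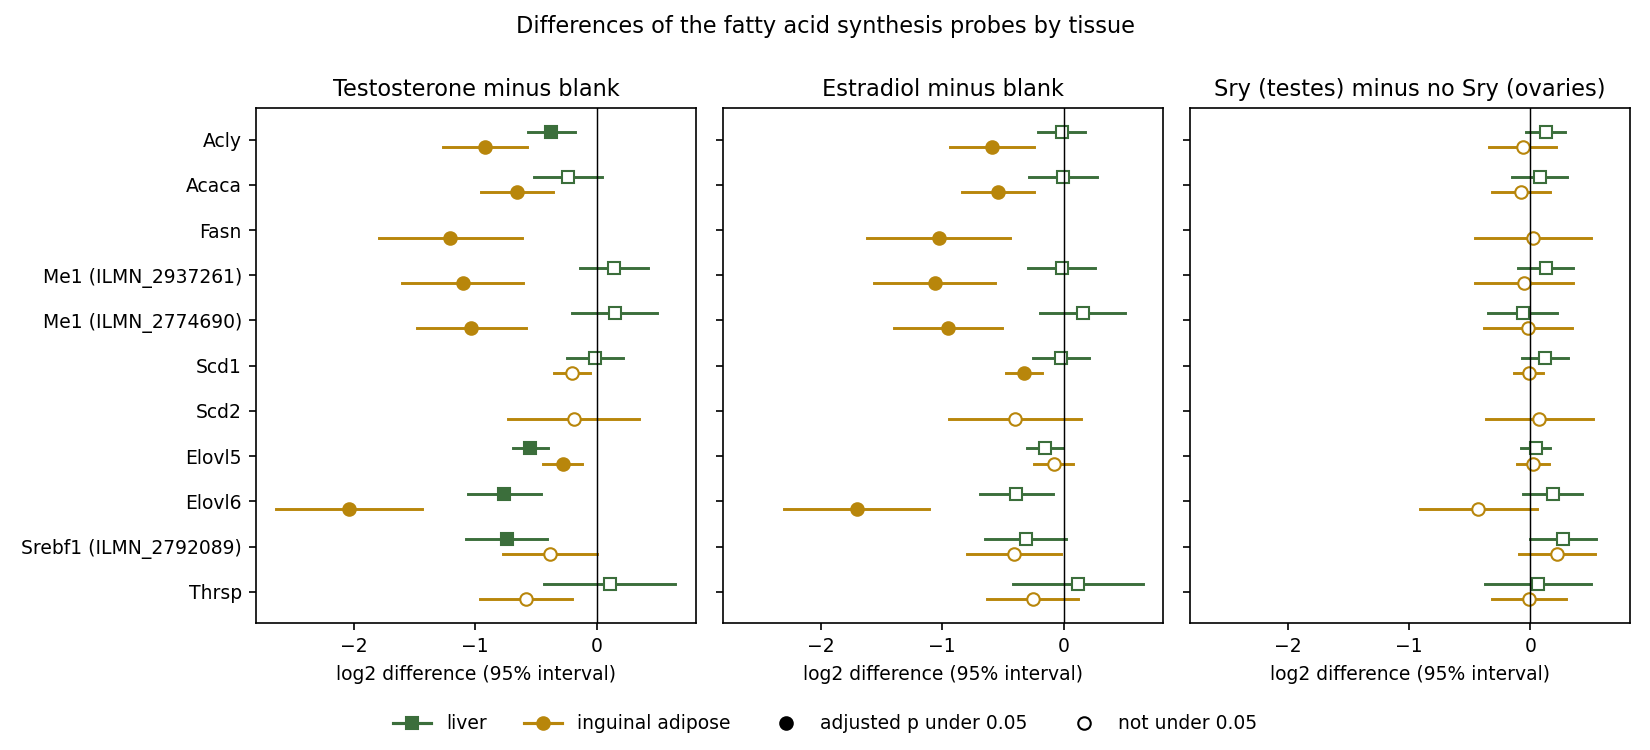
Log2 difference with 95% interval (x axis) of each probe (y axis) for testosterone against blank, estradiol against blank, and Sry against no Sry, in liver (squares) and adipose (circles); filled symbols have an adjusted p under 0.05. For Elovl6 and Me1 the adipose intervals lie left of the liver intervals with both hormones, as for Elovl6 with testosterone at -2.04 against -0.76, whereas no gonad difference is filled.

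Averaged over the 3 capsules, the type of gonad the mice had been born with gave no called difference in a member, although Me1 was called in liver within single capsules. The averaged gonad contrast called 0 of 9 probes in liver, against 3.4% of all tested probes, and 0 of 11 in adipose, against 7.34%. At an unadjusted p under 0.05 none of them passed in either tissue. In liver the differences, with Sry minus without, ran from -0.06 (Me1 on ILMN_2774690) to 0.27 (Srebf1, 95% interval -0.0028 to 0.54). In adipose they ran from -0.43 (Elovl6, 95% interval -0.91 to 0.05) to 0.22 (Srebf1). The tissue difference called 0 of 9, against 4.17% of all probes, and Elovl6 was nearest at -0.63 ± 0.28 (SE; adjusted p = 0.243). Array weights turned that into a call (-0.89, adjusted p = 0.0313). In adipose the gonad contrast coincided with lower epithelial markers (8 of 9 probes called lower, median difference -3.20) and higher white adipocyte markers (4 of 7 higher). With the white adipocyte score as a covariate 0 members were called, against 5.7% of all probes. With the epithelial score 0 members were called too, but only 0.00683% of all probes were, so that fit could hardly call a member. In liver 8 of 9 macrophage marker probes were called lower with Sry and 0 of 8 hepatocyte marker probes were called.

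Me1 in liver was called for gonad type under blank and under estradiol, in each case on only 1 of its 2 probes. Both probes gave a lower signal with Sry under a blank capsule and a higher signal with Sry under estradiol. On probe ILMN_2937261 the 10 blank arrays without Sry ran from 5.77 to 7.76 (median 6.89) and the 10 with Sry from 5.35 to 6.78 (median 6.29). With estradiol, arrays without Sry ran from 5.32 to 7.33 (median 6.22) and those with Sry from 6.31 to 7.78 (median 6.92). All 4 sets overlapped, and the order of the gonad types turned over between the capsules.

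The interaction, the estradiol difference with Sry minus that without, was 1.34 ± 0.28 (SE; adjusted p = 0.0227) on this probe. It was 1 of 9 probes called in liver, 0.0795% of those tested. The other probe, ILMN_2774690, gave 1.48 ± 0.35 (SE; adjusted p = 0.0673). Within capsules, ILMN_2774690 was lower with Sry under blank by 0.87 ± 0.25 (SE; adjusted p = 0.0485), where 1.75% of all probes were called. There ILMN_2937261 differed by -0.55 and was not called (adjusted p = 0.188 in limma). Under estradiol, ILMN_2937261 was higher with Sry by 0.78 ± 0.20 (SE; adjusted p = 0.0124), where 2.44% were called. There ILMN_2774690 was not called in the main fit or in any of 5 alternatives, which gave 0.33 to 0.64. By genotype, ILMN_2774690 changed with estradiol by -0.73 in XX and by 0.98 in XY-Sry.

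Both probes moved the same way, but which of them passed the threshold varied. Both were called with slide in the model and with array weights, and neither with median centring, where ILMN_2937261 gave 1.37 (adjusted p = 0.198), or without the filter on dim probes. Leaving out that XY- E array, replicate 5, gave both a call, ILMN_2774690 at 1.53 (adjusted p = 0.0276). The call under blank on ILMN_2774690 was lost on leaving out any of 34 single arrays. Among them was XY-Sry T replicate 5, whose Xist and Eif2s3y are at odds with its label (adjusted p = 0.0516). In adipose the same interaction for Me1 was 0.08 and 0.35 and called 0 members, against 0.813% of all probes. The testosterone by gonad interaction called 0 members in either tissue, against 0.124% of all probes in liver and 0.0137% in adipose. Its smallest adjusted p for a member in liver was 0.636. Even so, ILMN_2774690 in liver changed with testosterone by 0.73 in XXSry, 0.52 in XY-Sry, -0.43 in XX and -0.22 in XY-. This split by Sry had the same direction as with estradiol, and both hormones were compared with the same blank arrays. Thrsp in liver had an estradiol by gonad difference of 1.28 ± 0.53 (SE; adjusted p = 0.752), in the same direction as Me1.

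**Figure D5:**
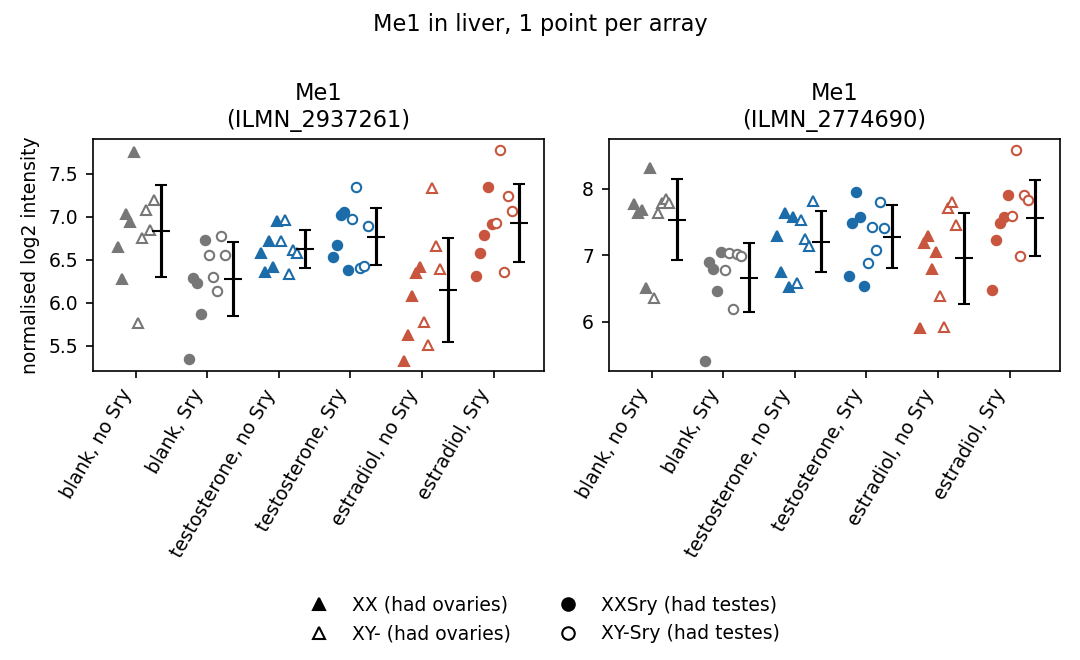
Normalised log2 intensity (y axis) of the 2 Me1 probes in liver by capsule and Sry, 10 arrays in each column, with mean and SD in black. The columns with Sry sit lower than those without under blank (medians 6.29 and 6.89 on ILMN_2937261) and higher under estradiol (6.92 and 6.22), with overlap in each pair.

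Sex chromosome complement (XX minus XY) called 0 members in either tissue, where 0.186% of liver and 0.137% of adipose probes were called. The liver differences lay between -0.17 and 0.04 and the adipose differences between -0.36 and 0.21. The interactions of either hormone with sex chromosomes called 0 members and 0% of all probes in either tissue.

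Members varied together from array to array. With group means removed, all 36 pairs of tested probes in liver correlated above 0 (median r 0.42, 60 arrays) and all 55 pairs in adipose did (median r 0.53, 55 arrays). Arrays share their RNA quality and tissue makeup across probes, so these values describe the arrays. Over all arrays of a tissue, group differences included, the probes most like the mean standardised member level were, in adipose, Acas2 (r = 0.917), the citrate carrier gene Slc25a1 (r = 0.898), Pfkl (r = 0.879), Pygl (r = 0.865) and Tkt (r = 0.863) over 55 arrays. In liver they were Acas2 again (r = 0.741), Chrna4 (r = 0.727), Slc2a2 (r = 0.725), Gstt3 (r = 0.712) and Pdk1 (r = 0.703) over 60 arrays. Acas2, an acetyl-CoA synthetase symbol that RefSeq lists as an older name of both Acss1 and Acss2, is kept as the array names it. The choice of these probes used the group differences, so their hormone differences are a description and support nothing. In adipose, Tkt, transketolase, differed by -1.69 with testosterone and Acas2 by -1.29 with estradiol.

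Around the members, 47 other genes of the pathway were tested in adipose on 68 probes and 43 in liver on 65. In adipose testosterone called 2 of the 68 probes higher and 3 lower, where 4.75% of all tested probes were called. Estradiol called 6 higher and 15 lower, where 20.5% of all were called, so the counts for each hormone are to be read against unequal backgrounds. Among the suppliers of acetyl-CoA and NADPH, Slc25a1 fell with testosterone (-0.73) and with estradiol (-1.08), while G6pdx, which makes NADPH in the pentose phosphate pathway, rose with estradiol (1.01, adjusted p = 3.23e-06).

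Regulators in adipose were called with estradiol on 7 of 29 probes, a share near the 20.5% of all probes. Of these, 6 were lower, with the largest fall in Insig1, a sterol-sensing partner of SREBP processing (-1.50, adjusted p = 1.55e-04), and Mlxipl, which encodes ChREBP, was higher (0.46). With testosterone 0 of 29 were called, against 4.75% of all. For esterification, the step that joins fatty acids to glycerol, estradiol called 4 of 12 probes lower, against 10.1% of all, with Agpat2 at -0.64, and Gpam higher by 1.30 ± 0.20 (SE; adjusted p = 2.01e-06).

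In liver testosterone called 10 of 65 probes higher and 7 lower, where 19.1% of all tested probes were called in either direction. Elovl3, an elongase of saturated fatty acids, rose by 2.69 ± 0.18 (SE; adjusted p = 5.59e-18), opposite to Elovl5 and Elovl6. Insig2, which retains SREBPs in the endoplasmic reticulum, rose by 1.91 with testosterone and by 1.70 with estradiol and was lower with Sry by 0.96. Pklr, liver pyruvate kinase, fell with testosterone by 0.95. Between the tissues, the testosterone differences of these other genes were called on 7 of 58 probes. All 7 were more negative in adipose than in liver, against 3.14% of all probes in this direction, including Slc25a1 (-0.77) and Agpat2 (-0.89). Agpat2 was called higher with testosterone in liver (0.45, adjusted p = 0.00228 in limma). In adipose 0 of 12 esterification probes were called with testosterone.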

How the data were processed

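Per the file headers, the authors deposited 1 average bead intensity and 1 detection p-value per probe and array. Array medians differed, so the intensities were treated as not normalised. The submitters' processing notes name lumi. One bead standard error column per array (60 liver, 55 adipose) was not used. In limma 3.58.1 (R 4.3.3), each tissue was background-corrected by normexp, with negative controls inferred from the deposited detection p-values, given an offset of 16, quantile-normalised and put on the log2 scale from the deposited intensities. Probes with detection p under 0.01 in at least 5 liver or 3 adipose arrays were tested. Group means were fitted with lmFit and eBayes, weighting genotypes equally, and p-values were adjusted by Benjamini-Hochberg over all tested probes. Tissue differences came from a joint normalisation and fit. Members and gene lists were chosen with earlier results of these data known. Every member was named; of other pathway genes, the called probe with the largest rise and that with the largest fall could be named per list, contrast and tissue, and the 5 probes per tissue most correlated with the members were named. One pathway result chosen this way is not reported here. The code was tested on simulated data. Alternatives varied scaling, background, filter, slide, array weights, marker covariates, the disputed label and each array. Promoters were RefSeq's. The precision of a group mean or contrast is limited by the number of arrays.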

Additional observations from a re-analysis of the deposited data

Results flagged for a closer look

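Among the groups of 4 or 5 arrays, a member's highest or lowest array stood apart from the rest of its group in 3 of 121 sets in adipose and 6 of 108 in liver. Chance flags about 1 in 20 groups, so these numbers are near what chance gives. In liver, the low arrays were Acaca at 9.08 in XY-Sry estradiol replicate 3 (others 10.10 to 10.35) and at 9.12 in XY- testosterone replicate 1 (others 9.80 to 9.99), Scd1 at 12.75 in that same XY- testosterone array (others 13.19 to 13.36), and Me1 on ILMN_2774690 at 6.36 in XY- blank replicate 1 (others 7.64 to 7.85). XX estradiol replicate 1 was low for both Scd1 (11.98, others 13.04 to 13.45) and Thrsp (7.35, others 9.97 to 10.98). In adipose, XY-Sry blank replicate 2 was high for Me1 on ILMN_2937261 (11.55, others 9.87 to 10.14) and for Scd1 (14.62, others 14.47 to 14.48), and Scd2 was low in XY-Sry estradiol replicate 3 (7.05, others 7.34 to 7.40).

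The hormone difference was unequal between tissues, adipose minus liver in limma's joint fit, for Elovl6 (-1.64 with testosterone, -1.58 with estradiol), Me1 on ILMN_2937261 (-1.34 and -1.10), Me1 on ILMN_2774690 (-1.29 and -1.19) and Acly (-0.63 and -0.60), and for Acaca with estradiol (-0.58). In liver, the estradiol difference of Me1 on ILMN_2937261 was unequal between gonad types, at 1.34.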

How the results depend on the processing

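No called member value changed sign under any alternative. The 4 liver testosterone calls held under every alternative run, and slide as a block added Acaca to them, making 5. Calls within either tissue for the gonad contrast averaged over capsules stayed absent under every alternative. With the epithelial score this says little, as only 0.00683% of all adipose probes were then called. The brown and white adipocyte scores and leaving out the XX groups were chosen after seeing the data. Adipose estradiol calls went from 7 to 2 with the brown adipocyte score and to 3 without the XX groups, as the share of all probes called went from 20.5% to 17.8% and 13.1%. Adipose testosterone calls went from 7 to 3 with slide as a block and to 4 without the XX groups, as that share went from 4.75% to 1.75% and 3.12%. Calls on the estradiol tissue difference went from 5 to 1 with median centring, 0 with slide and 3 without the XX groups, and those on the testosterone tissue difference from 4 to 2 with slide. Their shares of all probes went from 10.2% to 7.96%, 6.38% and 5.55% for estradiol and from 6.82% to 5.36% for testosterone. Array weights called 1 gonad tissue difference (Elovl6), and median centring called 1 liver estradiol difference (Elovl6). The liver estradiol by gonad count, 1, became 0 with median centring or no filter and 2 with slide or array weights. The cause of these changes was not tested.

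Leaving out each array in turn gave 3 to 6 calls for the estradiol tissue difference (3 without adipose XXSry E replicate 1, 6 without liver XX E replicate 1), 0 to 2 for liver estradiol by gonad and 0 to 1 for liver estradiol, the 1 being Elovl6 without XY- E replicate 3 (-0.50, adjusted p = 0.00814 in limma). Adipose testosterone gave 6 to 8 and adipose estradiol 7 throughout. No paired analysis was possible because the labels give no replicate numbers, and those used here follow accession order. Signal limits Fasn and Scd2, which were near background in liver, and Me1, which was dim there.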
